A study of Mus musculus with 32 samples.

Results

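The renin-angiotensin system genes are described here as 6 genes named by their symbols, Ren1, Agt, Ace, Agtr1a, Agtr1b and Agtr2, out of 55806 gene identifiers in the count tables of 32 mouse kidney RNA-seq libraries. All 6 were found in every table by their Ensembl identifiers. The list has no threshold on a measured value, although it was drawn up with earlier results of these data known. The study asked how mutant ENL, a chromatin reader encoded by Mllt1 (called Enl in the labels) that carries mutations found in Wilms tumor, acts in nephron progenitors and in stromal progenitors of the developing kidney. The T1 allele is a small insertion and the T3 allele a small deletion in the YEATS domain, and each was carried on 1 copy and switched on by Cre. Libraries came from whole kidneys or from tdTomato-positive (tdT+) cells sorted out of them, at E18.5 (days of embryonic development) or, for sorted Six2-lineage cells, also at E14.5.

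Whole kidneys with Cre in nephron progenitors were Six2-TGCtg/+;Enl+/+ (ENLWT, n = 2), Six2-TGCtg/+;EnlT1/+ (Six2-ENLT1, n = 2) and Six2-TGCtg/+;EnlT3/+ (Six2-ENLT3, n = 2). Whole kidneys with Cre in stromal progenitors were Foxd1GC/+;Enl+/+ (n = 3) and Foxd1GC/+;EnlT1/+ (Foxd1-ENLT1, n = 3). Sorted Six2-lineage cells were ENLWT or ENLT1, with 3 libraries of each at E14.5 and 3 of each at E18.5, and sorted Foxd1-lineage cells at E18.5 were ENLWT (n = 4) or ENLT1 (n = 4). Every control carried the same Cre allele as its mutant. Six2-TGC is a transgene inserted as a bacterial artificial chromosome, and Foxd1GC is a knock-in that removes the function of 1 Foxd1 copy, so controls of the stromal arm were Foxd1 heterozygotes. Sorted cells additionally carried a Cre-dependent tdTomato reporter. The labels do not say which libraries came from separate animals, so the p-values measure the spread between these libraries.

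Renin, made by juxtaglomerular cells in the wall of the afferent arteriole, cuts angiotensinogen into angiotensin I, and angiotensin converting enzyme turns that peptide into angiotensin II. Angiotensin II acts on type 1 receptors, of which the mouse has a pair, Agtr1a and Agtr1b, and on the type 2 receptor Agtr2, which is abundant in fetal mesenchyme. In the fetal kidney renin is expressed along much of the growing arterial tree by cells that descend from Foxd1-positive stroma, and loss of renin, angiotensinogen, the converting enzyme or both type 1 receptors leaves the medulla and vessels malformed.

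Sequences 5′ of Ren1 and of both receptor genes whose level changed in the sorted stromal cells are shown because those 3 genes carry the main result. Each line holds the 250 bases before the RefSeq transcription start (GRCm38.p6), 5′ to 3′ on the gene's strand, with motif matches in capitals. They lie at chr1:133350424-133350673 on the plus strand (Ren1), chrX:21484374-21484623 on the plus strand (Agtr2) and chr3:20367178-20367427 on the minus strand (Agtr1b).
Ren1: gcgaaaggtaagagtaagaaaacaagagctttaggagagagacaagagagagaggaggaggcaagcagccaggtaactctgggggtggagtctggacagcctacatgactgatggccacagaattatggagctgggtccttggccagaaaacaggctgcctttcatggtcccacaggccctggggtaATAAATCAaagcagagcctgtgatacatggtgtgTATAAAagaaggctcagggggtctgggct
Agtr2: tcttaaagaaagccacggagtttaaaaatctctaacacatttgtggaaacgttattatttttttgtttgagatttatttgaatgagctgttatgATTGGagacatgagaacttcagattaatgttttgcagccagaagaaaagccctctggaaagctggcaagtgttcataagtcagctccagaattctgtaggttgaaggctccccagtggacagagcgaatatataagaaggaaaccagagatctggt
Agtr1b: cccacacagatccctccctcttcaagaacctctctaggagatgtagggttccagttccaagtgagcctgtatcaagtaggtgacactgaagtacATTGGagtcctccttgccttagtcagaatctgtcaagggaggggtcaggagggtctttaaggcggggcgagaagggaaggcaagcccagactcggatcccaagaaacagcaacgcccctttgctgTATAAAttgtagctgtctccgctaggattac
In Ren1 the capitals mark TATAAA at bases -29 to -24 and, on the opposite strand at bases -63 to -56, TGATTNAT. In Agtr2 they mark CCAAT on the opposite strand at bases -156 to -152. In Agtr1b they mark CCAAT on the opposite strand, at the same distance from the start, and TATAAA at bases -31 to -26. Both strands were searched for these 3 motifs and for TGACGTCA, TGACCT and TGGGAA, with no overlap between the matches shown. Among 32851 RefSeq promoters of the same length, 12.4% held TATAAA, 33.8% CCAAT and 2.82% TGATTNAT, 1.55% held TGACGTCA, 14% TGACCT and 21.6% TGGGAA. A match is a description of the letters in this window only. Agt and both annotated Ace starts were searched in the same way, and Agtr1a had no entry in the promoter table.

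The genes lie on separate chromosomes of GRCm38. Ren1 (ENSMUSG00000070645) spans chr1:133350510-133360325 on the plus strand, Agt (ENSMUSG00000031980) chr8:124556534-124569706 on the minus strand and Ace (ENSMUSG00000020681) chr11:105967945-105989964 on the plus strand. Agtr1a (ENSMUSG00000049115) spans chr13:30336441-30382867 on the plus strand, Agtr1b (ENSMUSG00000054988) chr3:20314473-20367177 on the minus strand and Agtr2 (ENSMUSG00000068122) chrX:21484544-21489164 on the plus strand. Ren1, Agt and Agtr2 shared no exon base and no 50-base stretch with another gene. In Ace 5.58% of exon bases were shared with Gm11651, and 1.54% of the 50-base stretches of Agtr1b also occurred in Agtr1a, so reads from those stretches cannot be assigned to 1 gene.

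Total counts ranged from 106005614 to 157266455 in the Six2 whole kidneys, from 67137194 to 79343015 in the Foxd1 whole kidneys, from 76510702 to 137888792 in the sorted Six2 cells and from 2557443 to 3508381 in the sorted Foxd1 cells. A floor of 3 counts was worth 0.833 to 1.21 CPM (counts scaled to a library of 1000000) in the shallow sorted Foxd1 libraries and at most 0.0446 CPM elsewhere. At E18.5 the 6 nephron progenitor markers summed to 447 to 584 CPM in sorted Six2-lineage controls and 108 to 160 CPM in Foxd1-lineage controls, although only 3 of the 6 were called lower in Foxd1-lineage cells and 1 was called higher. The 10 interstitial stroma markers summed to 540 to 743 and 8030 to 10600 CPM, with 9 called higher. Mllt1 counts were present in every library, and gene counts do not separate the mutant from the normal allele. By Xist and Ddx3y counts all 8 sorted Foxd1 libraries were male and all 6 Foxd1 whole kidneys female, while the sorted Six2 sets held both sexes. A gene was called changed when its adjusted p (edgeR quasi-likelihood test, Benjamini-Hochberg) was under 0.05 with a fold change over 1.5.

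**Figure D1:**
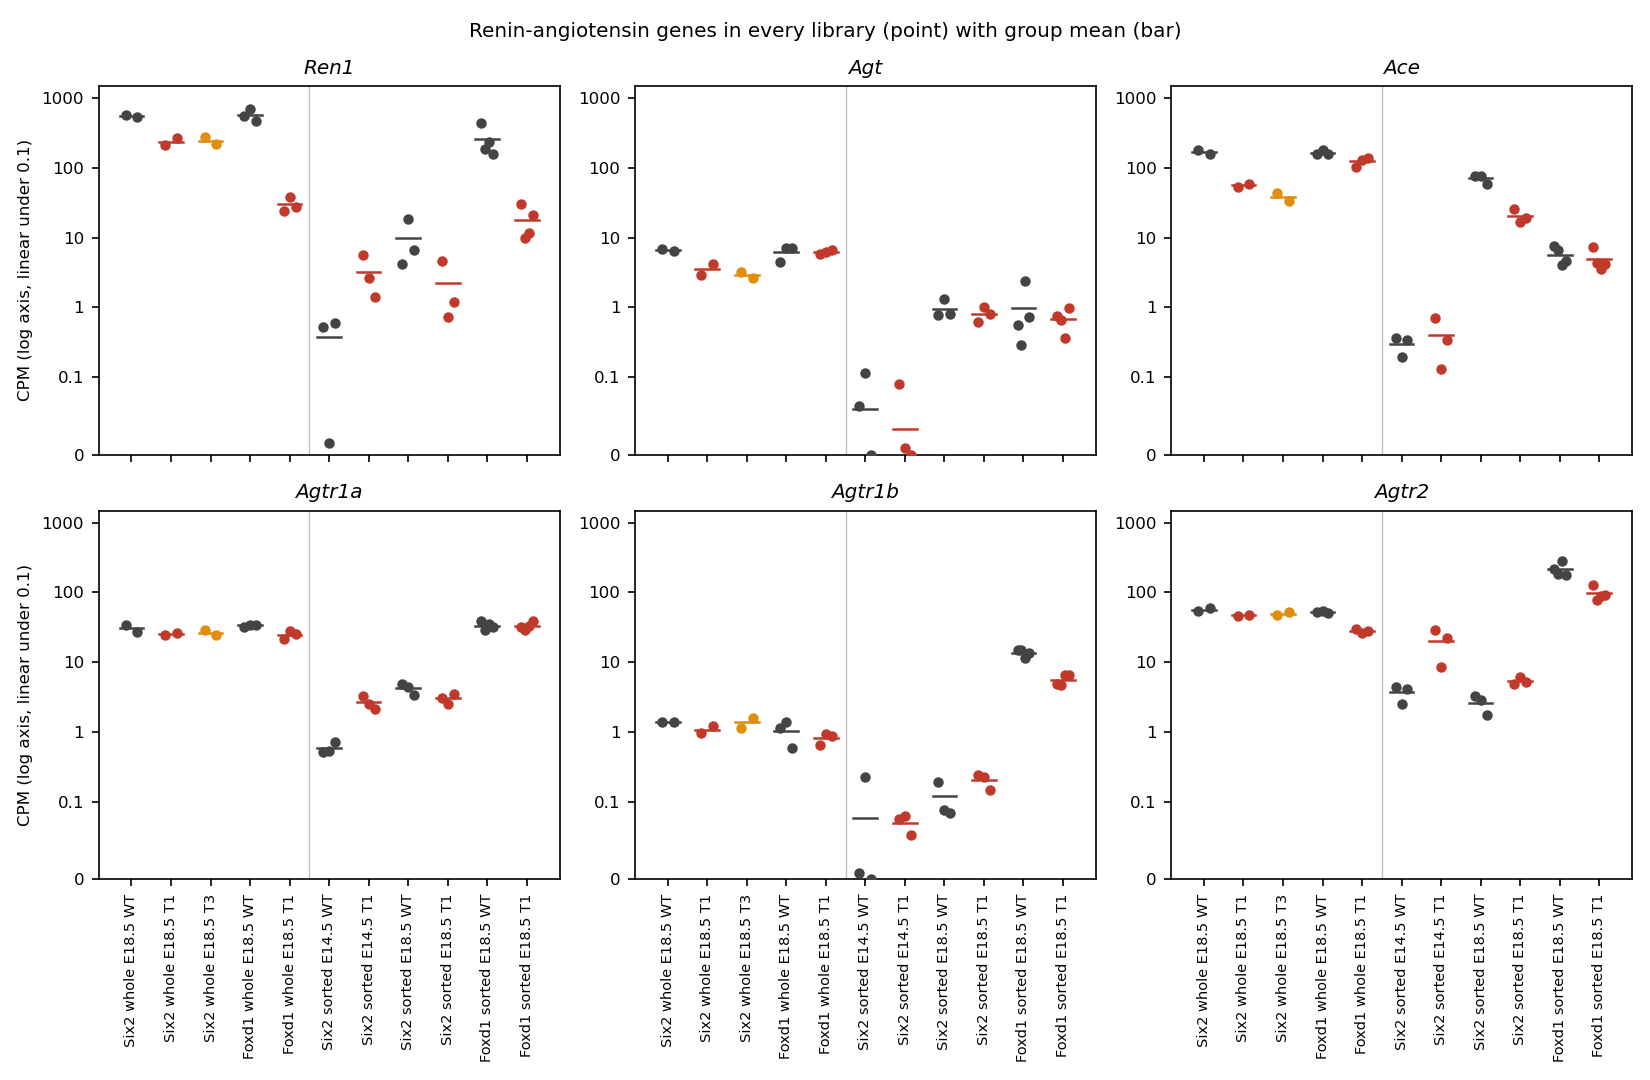
CPM of each renin-angiotensin gene (panels, log axis that is linear under 0.1) in every library (points), with the group mean (bar), for whole kidneys left of the line and sorted cells right of it (grey WT, red T1, orange T3). Ren1 is the highest of the 6 in whole kidneys other than Foxd1 T1, where Ace is higher (125 against 30 CPM), and falls furthest in the Foxd1 T1 groups, Agtr2 and Agtr1b are highest in sorted Foxd1 cells, and Ace falls in Six2 mutants at E18.5.

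In control whole kidneys Ren1 dominated the set. Per kilobase of exon the mean Ren1 level was 350 ± 74.4 CPM per kb (SD, n = 3) in Foxd1 controls and 340 ± 14 CPM per kb (n = 2) in Six2 controls, and it ranked between 102 and 206 among all genes by count in those 5 libraries. Ace followed at 31.3 ± 2.46 and 32.2 ± 3.66 CPM per kb, Agtr2 at 15.7 ± 0.757 and 17 ± 1.12, Agtr1a at 12.1 ± 0.397 and 11.1 ± 1.96, Agt at 3.29 ± 0.833 and 3.48 ± 0.146, and Agtr1b at 0.481 ± 0.186 and 0.644 ± 0.000283 CPM per kb. The order of the 6 levels was the same in both control sets, and the intervals of 1 SD of neighbouring genes did not meet. In sorted control cells the order differed by lineage. Sorted Foxd1-lineage cells were led by Ren1 (155 ± 77.2 CPM per kb) and Agtr2 (64.9 ± 14.8 CPM per kb, n = 4), followed by Agtr1a at 12.1 ± 1.54 and Agtr1b at 6.36 ± 0.696 CPM per kb. Sorted Six2-lineage cells at E18.5 were led by Ace (13.4 ± 1.86 CPM per kb, n = 3).

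Ren1, which encodes the protease that sets the pace of the whole cascade, fell to a small part of its control level when ENLT1 was made in stromal progenitors and the stromal cells were sorted. In sorted Foxd1-lineage cells the controls had 442.3, 186.7, 236.0 and 160.2 CPM and the ENLT1 cells 30.4, 9.98, 11.5 and 21.0 CPM. The lowest control was above the highest mutant, although control replicate 1 stood well above the other 3. The fitted log2 fold change was -3.83 (SE 0.32, adjusted p = 2.42e-07), a 14.2-fold lower level, and it ranked 1 among the falls of 12717 tested genes. With any 1 library left out the value stayed between -4.18 and -3.42. Fewer cells of a type and less RNA per cell cannot be told apart in such bulk libraries, here and below.

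The whole kidneys of the same genotype gave the same direction in separate libraries made with another kit. Foxd1 controls had 560.2, 711.4 and 467.0 CPM and Foxd1-ENLT1 kidneys 23.9, 38.3 and 27.8 CPM. The mutant mean was 5.18% of the control mean, with no overlap. The log2 fold change was -4.27 (SE 0.17, adjusted p = 3.39e-09), a 19.3-fold lower level, and 10 of the 20145 genes tested fell further. Ren1 moved from a rank between 102 and 206 among all genes to one between 6583 and 8520.

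Of the 5 members tested in sorted Foxd1-lineage cells 3 fell and 0 rose, beside 5.81% of all tested genes called, 2.18% lower and 3.63% higher. Both others that fell were receptors. Agtr2 had 217.8, 182.1, 284.7 and 179.1 CPM in controls and 127.5, 79.2, 90.3 and 91.6 CPM in ENLT1 cells, with no overlap, a log2 fold change of -1.15 (SE 0.14, adjusted p = 2.03e-05). Agtr1b had 14.7, 14.9, 11.7 and 13.4 CPM in controls and 4.82, 4.66, 6.47 and 6.45 CPM in ENLT1 cells, again without overlap. Its log2 fold change was -1.29 (SE 0.20, adjusted p = 0.00026), resting on 29 to 53 counts per control and 13 to 20 per mutant library. Agtr1a, the main type 1 receptor of the kidney, averaged 33.6 ± 4.29 CPM in controls and 33.3 ± 3.94 CPM in ENLT1 cells (SD, n = 4 each). Its log2 difference was -0.01, with a 95% interval of -0.27 to 0.25. Ace had only 10 to 27 counts per library and a log2 difference of -0.28 (adjusted p = 0.613), and Agt, with 1 to 6 counts per library, was under the filter and was not tested.

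In Foxd1-ENLT1 whole kidneys 2 of the 6 members were called lower and 0 higher, beside 10.2% of all tested genes called, 7.53% lower and 2.65% higher. Besides Ren1 this was Agtr2, with 51.8, 55.1 and 50.1 CPM in controls against 30.2, 26.6 and 28.3 CPM in mutants (log2 fold change -0.88, SE 0.06, adjusted p = 4.44e-07). Agtr1a (-0.44, adjusted p = 0.00119) and Ace (-0.40, adjusted p = 0.00604) were each lower in all 3 mutants, by less than 1.5-fold. Agt, the substrate, averaged 6.22 ± 1.57 CPM in controls and 6.24 ± 0.467 CPM in mutants, with a 95% interval of -0.35 to 0.35 for the log2 difference. Agtr1b, near 1 CPM in whole kidneys, differed by -0.34 (adjusted p = 0.437).

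The control levels of the sorted cells and of whole Foxd1 kidneys can only be set side by side, since kit, depth, sex, dissociation and gene table differed and each table was scaled on its own. Agtr1b stood at 13.7 CPM in sorted cells and 1.03 CPM in whole kidneys, and Agtr2 at 216 and 52.4 CPM. Agtr1a stood at 33.6 and 33.7 CPM, Ren1 at 256 and 580, and Ace at 5.73 and 165 CPM. The table of the sorted Foxd1 cells listed 55471 identifiers and the others 54752, and the part of that difference in these ratios was not tested.

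**Figure D2:**
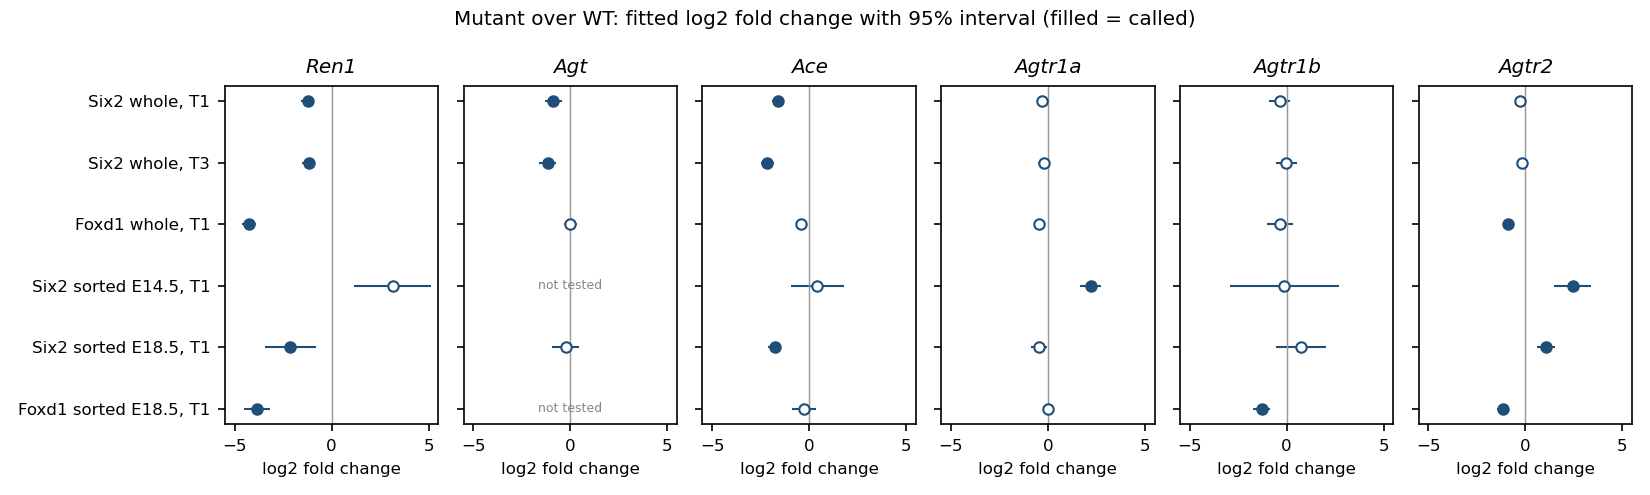
Fitted log2 fold change of mutant over WT with its 95% interval for each renin-angiotensin gene (panels) in 6 comparisons (rows), filled where called. Ren1 is called lower in 5 rows and sits at -4.27 and -3.83 in the Foxd1 rows, while Agtr2 is called lower in the Foxd1 rows and higher in both sorted Six2 rows.

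Genes that mark or regulate renin cells were read beside Ren1. Among 19 such genes 17 were tested in sorted Foxd1-lineage cells, of which 3 fell and 0 rose, beside 2.18% of all tested genes called lower and 3.63% higher. The list median log2 fold change was -0.11 against -0.00 for all genes. The genes that fell included Akr1b7, an aldo-keto reductase used as a marker of renin cells (12 ± 3.43 to 4.13 ± 0.917 CPM, log2 fold change -1.52, adjusted p = 0.000648), and Gja5, the connexin 40 of renin cells and arterial endothelium (19.1 ± 3.32 to 8.35 ± 1.38 CPM, -1.20, adjusted p = 0.000264). In Foxd1 whole kidneys 4 of 19 fell and 0 rose, beside 7.53% of all tested genes called lower and 2.65% higher. The 4 were Akr1b7 (-2.51), Gja5 (-0.94), Adcy5, an adenylyl cyclase (-0.97), and Adrb1, the beta-1 adrenergic receptor (-0.80). Creb1, Crebbp, Ep300, Rbpj and Prkaca, the cAMP and Notch effectors of renin transcription, passed no call in either set, with log2 differences between -0.38 and 0.21.

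Markers of arteriolar muscle and pericytes moved less than Ren1. The summed level of 10 mural markers was 2380 to 2610 CPM in sorted Foxd1 controls and 1900 to 2160 CPM in ENLT1 cells. Of the 10, Myh11 (smooth muscle myosin, -1.02) and Pdgfrb (-0.72) fell and Des (desmin, 0.68) rose. In Foxd1 whole kidneys the sum was 1270 to 1410 CPM in controls and 1070 to 1190 CPM in mutants, and Acta2 (-0.60), Myh11 (-1.01) and Cnn1 (-1.13) fell. The 10 interstitial stroma markers summed to 8030 to 10600 CPM in sorted controls and 8440 to 9400 CPM in sorted ENLT1 cells, with Tcf21 called lower (-0.99) and Lum (1.14) and Meis2 (0.85) higher. The 8 macrophage markers summed to 126 to 313 CPM in sorted controls and 264 to 365 CPM in sorted ENLT1 cells, with 6 called higher. The 6 adrenal cortex markers summed to 7.96 to 12.5 CPM in sorted controls and 3.6 to 4.84 CPM in sorted ENLT1 cells. Only 1 of them was tested there, and it was called lower (-2.17). In Foxd1 whole kidneys they summed to 5.77 to 9.01 CPM in controls and 5.28 to 5.88 CPM in mutants. Of 4 tested there 1 was called lower and 0 higher. All 10 genes of the mural and the interstitial list were detected, and the part of cell composition in the Ren1 fall was not tested.

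**Figure D3:**
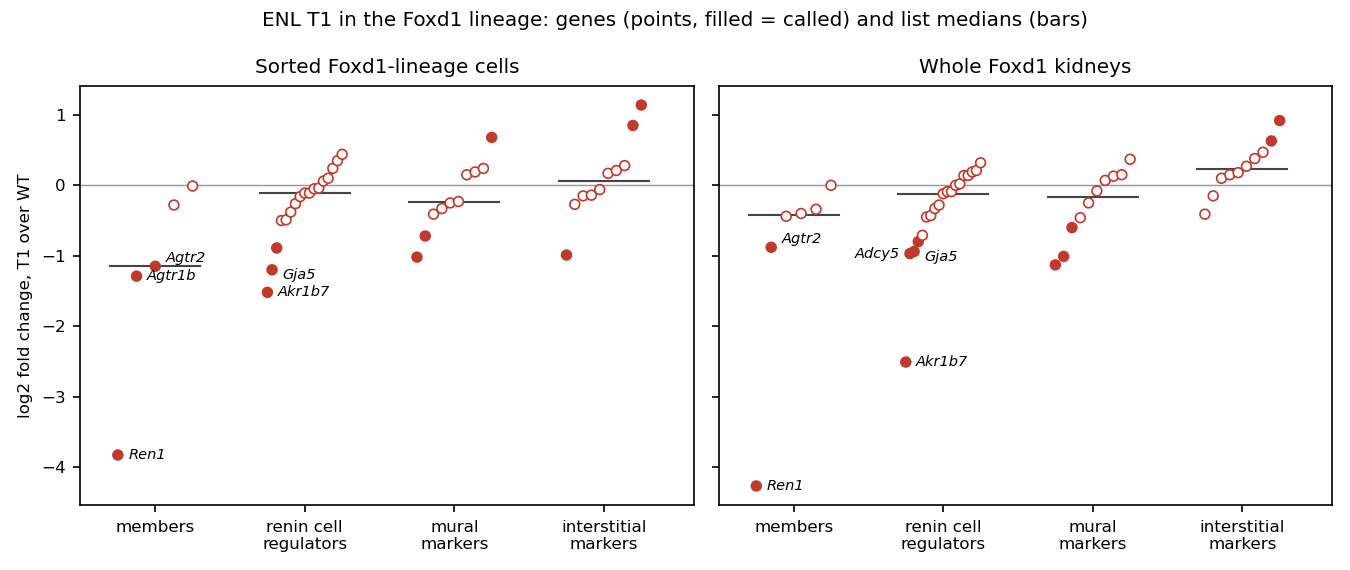
Log2 fold change of T1 over WT in sorted Foxd1-lineage cells (left) and Foxd1 whole kidneys (right) for the renin-angiotensin genes, renin cell regulators, mural markers and interstitial markers (points, filled where called; bars are list medians). Ren1 lies at -3.83 and -4.27, below Akr1b7 at -1.52 and -2.51 and below every mural and interstitial marker.

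With ENL mutants made in nephron progenitors, Ren1 fell by a smaller factor and the converting enzyme fell with it. Six2 control kidneys had 580.0 and 547.1 CPM of Ren1, Six2-ENLT1 kidneys 210.8 and 267.0 CPM and Six2-ENLT3 kidneys 275.3 and 218.6 CPM. Both mutant groups lay below both controls and overlapped each other. The log2 fold change was -1.24 (SE 0.14, adjusted p = 0.00112) for T1 and -1.19 (SE 0.14, adjusted p = 0.00113) for T3. Gja5 also fell, by 0.97 and 0.96 on the log2 scale, and Akr1b7 was called lower for T1 (-0.89, adjusted p = 0.00301) but for T3 stood at -0.55 (adjusted p = 0.0211), short of 1.5-fold. The 10 mural markers summed to 1400 to 1500 CPM in controls, 1200 CPM with T1 and 1150 to 1240 CPM with T3, 9 of the 10 lay below 0 for each allele, and Myh11 was the 1 call (-1.15 and -0.97). The 7 podocyte markers fell from a sum of 1010 to 1140 CPM to 331 to 356 and 325 to 354 CPM, all 7 called, and the part of either list in the Ren1 fall was not tested. The T1 effect on Ren1 differed between the Foxd1 and Six2 whole kidneys in an interaction fit by -3.05 (SE 0.27, adjusted p = 1.5e-05). That fit spans sets that differ in sequencing run, read length, Cre allele and sex, which cannot be told apart from the driver.

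Ace, whose product sits on endothelium and on the proximal tubule brush border, had 183.7 and 156.3 CPM in Six2 controls, 53.9 and 59.7 CPM in Six2-ENLT1 kidneys and 43.4 and 33.4 CPM in Six2-ENLT3 kidneys. The 3 genotypes did not overlap. Its log2 fold change was -1.58 (SE 0.13, adjusted p = 0.000309) for T1 and -2.15 (SE 0.13, adjusted p = 8.38e-05) for T3. The T3 and T1 kidneys differed by -0.57 (95% interval -0.87 to -0.26), which did not pass the test across all genes (adjusted p = 0.487). Both T1 kidneys were male and both T3 kidneys female by their counts, so allele and sex cannot be told apart in that contrast. No member was called between T3 and T1, where 0.00418% of tested genes were called. Agt had 6.78 and 6.39 CPM in controls, 2.95 and 4.19 CPM with T1 and 3.22 and 2.61 CPM with T3, a log2 fold change of -0.89 (adjusted p = 0.0179) and -1.18 (adjusted p = 0.00495). The T1 call on Agt was lost without Six2-ENLT1 replicate 1 (-0.63, adjusted p = 0.127), a fit in which the lone T1 library is assumed to vary like the other groups.

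In each mutant 3 of 6 members fell and 0 rose, beside 7.77% of genes called for T1 (4.88% lower and 2.88% higher) and 9.62% for T3 (5.28% lower and 4.34% higher). The receptors were near their control levels. Agtr2 averaged 56.6 ± 3.74 CPM in controls, 46.8 ± 0.898 CPM with T1 (-0.28, adjusted p = 0.0435, under 1.5-fold) and 49.5 ± 3.25 CPM with T3 (-0.19, adjusted p = 0.115). Agtr1a differed by -0.28 (adjusted p = 0.241) and -0.21 (adjusted p = 0.326), and Agtr1b by -0.36 (adjusted p = 0.386) and -0.01 (adjusted p = 0.98).

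Other enzymes that act on angiotensin peptides moved in the same kidneys. Anpep, aminopeptidase N, went from 1220 ± 133 CPM to 179 ± 15.5 CPM with T1 (-2.78, adjusted p = 1.93e-05) and 169 ± 1.27 CPM with T3 (-2.86). Mme, neprilysin, went from 413 ± 3.89 to 179 ± 9.26 and 166 ± 1.48 CPM (-1.21 and -1.32). Of the 16 tested genes in the list of 18 other pathway genes, 2 were called lower for T1 and 3 for T3, and 0 higher. Over all tested genes 4.88% were called lower for T1 and 5.28% for T3. The third pathway gene called for T3 was Ctsa, cathepsin A (-0.60, adjusted p = 0.00284), named after its value was seen. Ace, Anpep and Mme are all brush border enzymes, and 10 proximal tubule markers summed to 3260 to 3950 CPM in controls, 591 to 733 CPM with T1 and 562 to 607 CPM with T3, while 10 endothelial markers summed to 1250 to 1300, 1190 to 1240 and 1160 to 1250 CPM. The part of proximal tubule content in the Ace fall was not tested.

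Proximal tubule markers were lower in the stromal arm as well. Foxd1 whole kidneys had 3690 to 3910 CPM of proximal tubule markers in controls and 1740 to 2260 CPM in mutants, with Anpep at -1.27 (adjusted p = 8.12e-07) and Mme at -0.77 (adjusted p = 1.5e-06). Of the 16 other pathway genes tested there 4 were called lower and 1 higher, beside 7.53% of all tested genes called lower and 2.65% higher. The lower calls on pathway genes also included Mas1, the receptor for a shorter angiotensin peptide (-1.10, adjusted p = 0.0442), named after its value was seen, and the higher call was the kallikrein Klk1 (0.67, adjusted p = 0.000133). The T1 effect on Ace was 1.16 higher on the log2 scale in Foxd1 than in Six2 kidneys (SE 0.16, adjusted p = 0.000657), and that on Agtr2 was 0.62 lower (-0.62, SE 0.11, adjusted p = 0.00264). Of the members 1 was called with a positive and 2 with a negative interaction, beside 8.37% of genes called, 4.82% positive and 3.55% negative. In sorted Foxd1-lineage cells Anpep was called lower (-0.88, adjusted p = 0.00616) and Mme stood at -0.58 (adjusted p = 0.000627, under 1.5-fold). Proximal tubule markers in that sort summed to 133 to 383 CPM in controls and 79.5 to 146 CPM in ENLT1 cells. Of the 6 such markers tested 3 were called lower and 0 higher, and their part in both enzyme values was not tested. In all 2 of the 12 pathway genes tested there were called lower and 0 higher, with a list median of -0.10. Over all genes tested in that sort 2.18% were called lower and 3.63% higher.

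In sorted Six2-lineage cells Agtr2 and Agtr1a rose at E14.5. Agtr2 had 4.47, 2.53 and 4.07 CPM in controls and 28.6, 8.63 and 22.5 CPM in ENLT1 cells, every mutant above every control, with a log2 fold change of 2.45 (SE 0.41, adjusted p = 0.00639). Agtr1a had 0.507, 0.535 and 0.711 CPM against 3.31, 2.55 and 2.15 CPM (2.21, SE 0.24, adjusted p = 0.000808). These were the 2 calls among the 5 members tested, both higher, beside 6.4% of genes called, 4.11% higher and 2.28% lower. Ren1 had 0.522, 0.0143 and 0.596 CPM in controls and 5.72, 2.67 and 1.40 CPM in ENLT1 cells. It did not overlap, yet its log2 difference of 3.14 (SE 0.88) missed the threshold (adjusted p = 0.0511), and it passed without control replicate 2, which held 2 counts (2.56, adjusted p = 0.0421). It also passed with the edgeR exact test (3.13, adjusted p = 0.0158), without the low-count filter (adjusted p = 0.0104) and with scaling by library size alone (adjusted p = 0.0492). Ace (0.43, adjusted p = 0.717) and Agtr1b (-0.12, adjusted p = 0.969) were both under 1 CPM in all 6 libraries, and Agt had 0 to 16 counts and was not tested.

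For scale, Agtr2 averaged 216 CPM in sorted Foxd1 control cells, in a table scaled apart. Stromal markers moved with the receptors. The 10 interstitial markers summed to 704 to 841 CPM in sorted Six2 controls at E14.5 and 1170 to 2090 CPM in ENLT1 cells, and 7 rose, among them Pdgfra (2.11), Col1a1 (2.47) and Dcn (2.73), while Foxd1 fell (-0.96). Of the 10 mural markers 4 rose, Cnn1 (2.17), Cspg4 (1.25), Rgs5 (1.03) and Pdgfrb (0.88), and Des fell (-0.77), with a list median of 0.94, while their summed level was 300 to 352 CPM in controls and 280 to 316 CPM in ENLT1 cells. Zbtb16, the PLZF protein that binds the Agtr2 tail, rose as well at E14.5 (1.91, adjusted p = 0.00478) and E18.5 (1.58, adjusted p = 7.53e-06). Mme (1.01, adjusted p = 0.001) and Enpep, glutamyl aminopeptidase (0.62, adjusted p = 0.0493, named after its value was seen), were among 3 higher calls, with 0 lower, in the 13 pathway genes tested at E14.5. Over all genes tested at E14.5 4.11% were called higher and 2.28% lower. The part of stromal cells within the sort in the receptor rise was not tested.

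At E18.5 the sorted Six2-lineage cells showed 1 member higher and 2 lower, beside 11.7% of genes called, 6.14% higher and 5.54% lower. Agtr2 stayed above control, with 3.26, 2.86 and 1.77 CPM against 4.89, 6.23 and 5.17 CPM (1.05, SE 0.21, adjusted p = 0.003), in cells where the interstitial sum was 540 to 743 CPM in controls and 1010 to 1170 CPM in mutants. Of the 10 interstitial markers 7 were called higher and 2 lower, Foxd1 (-1.93) and Tcf21 (-0.93). Ace fell from 75.8, 76.8 and 59.3 CPM to 25.8, 16.6 and 18.9 CPM (-1.78, SE 0.15, adjusted p = 1.41e-06), while proximal tubule markers went from a sum of 1690 to 2270 CPM to one of 525 to 599 CPM. Other cell types shifted in the same sort: 7 podocyte markers went from a sum of 3130 to 3650 CPM to one of 233 to 294, 6 red cell markers from 87.5 to 167 up to 1240 to 1810, 8 macrophage markers from 37.5 to 40.1 up to 97.6 to 113, and 10 mural markers from 409 to 458 up to 508 to 551 CPM. Of the mural markers 5 were called higher and 1 lower, Des (-1.17). The part of these shifts in the member changes was not tested. Anpep (-1.90), Mme (-1.41) and Klk1 (-1.47) were among 4 lower calls, with 0 higher, in the 14 pathway genes tested in the same cells. Ren1 had 4.23, 18.6 and 6.69 CPM in controls and 4.69, 0.739 and 1.19 CPM in ENLT1 cells, which overlap. Its call (-2.13, SE 0.60, adjusted p = 0.0228) was lost without control replicate 2 (-1.29, adjusted p = 0.167), ENLT1 replicate 2 (-1.72, adjusted p = 0.0867) or ENLT1 replicate 3 (-1.84, adjusted p = 0.103), and with DESeq2 (adjusted p = 0.0958). Agtr1a differed by -0.47 (adjusted p = 0.104), Agt by -0.25 (adjusted p = 0.661) and Agtr1b by 0.75 (adjusted p = 0.463).

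**Figure D4:**
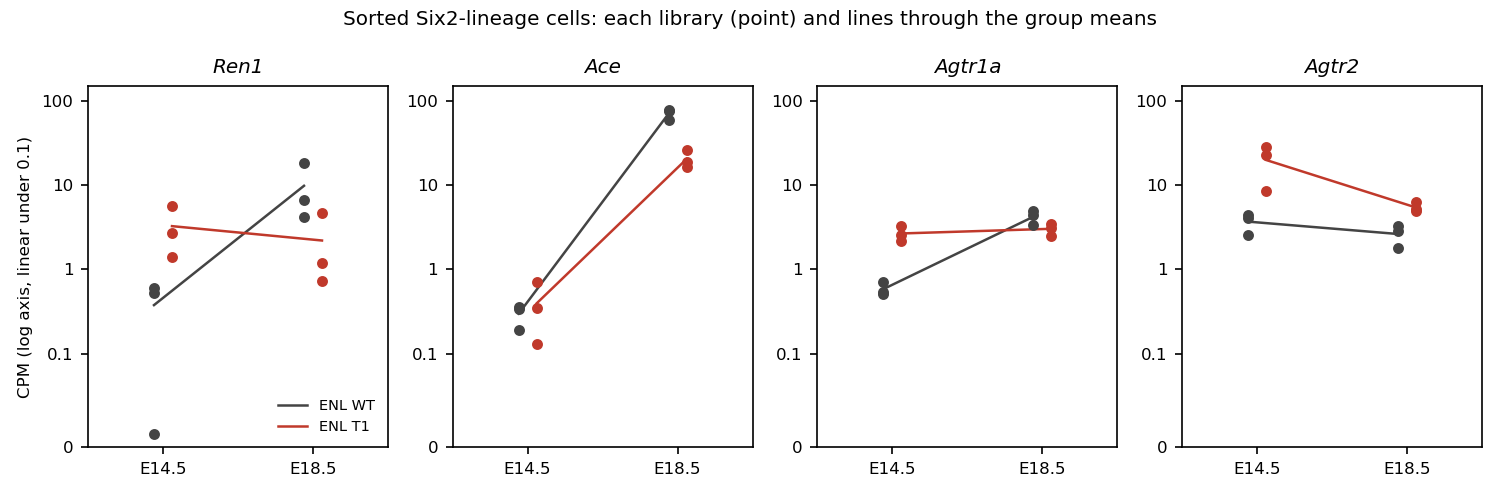
CPM (log axis, linear under 0.1) of Ren1, Ace, Agtr1a and Agtr2 in sorted Six2-lineage cells at E14.5 and E18.5, with points for libraries and lines through group means (grey WT, red T1). Control Ace rises from a mean of 0.298 to 70.6 CPM and T1 Ace to 20.4 CPM, while the Agtr2 lines keep T1 above WT at both stages.

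Between E14.5 and E18.5, with calls at an adjusted p under 0.01 and over 2-fold, Ace, Agtr1a and Ren1 rose in sorted control cells. Over all tested genes 45.5% were called, 24.8% higher and 20.6% lower. Agt is set apart below and is not counted with them. Ace rose most, from 0.298 ± 0.0919 to 70.6 ± 9.86 CPM (log2 fold change 7.89, SE 0.40, adjusted p = 2e-10), a 237-fold change. The 10 proximal tubule markers summed to 8.83 to 31.1 CPM in E14.5 controls and 1690 to 2270 CPM in E18.5 controls. The 10 mural markers summed to 300 to 352 CPM in E14.5 controls and 409 to 458 CPM in E18.5 controls, with 7 called higher and 1 lower. Of 10 interstitial markers 1 was called higher and 2 lower. The part of cell content in the rises of Ace, Agtr1a and Ren1 was not tested. Agtr1a rose from 0.584 ± 0.11 to 4.22 ± 0.782 CPM (2.85, SE 0.24, adjusted p = 5.42e-08), and Ren1 (4.71, SE 0.95, adjusted p = 0.000441) rose from 67, 2 and 78 counts per library. Agt stood at 3.99 (SE 0.90), from 8, 16 and 0 counts. In ENLT1 cells Ace rose (5.66) and Agtr2 fell (-1.87, adjusted p = 0.00027), beside 44.2% of genes called, 24.4% higher and 19.8% lower. Agt stood at 4.52 there. Agt was under the filter within E14.5, with 13, 1 and 0 counts in ENLT1 cells. It entered this fit through the E18.5 libraries, where it was higher, so both its rises were favoured by the filter and are given as values only. Agtr1a, already raised at E14.5, differed by 0.18 between the stages (95% interval -0.29 to 0.65). Per the paper's methods E14.5 kidneys were dissociated with trypsin and E18.5 kidneys with collagenase II. Stage cannot be told apart here from dissociation and depth.

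The T1 effect at E18.5 minus that at E14.5 was tested directly, and 3 of 6 members had a negative value past the threshold, beside 8.16% of genes with a value past it in either direction and 4.22% in that one. It was -5.27 for Ren1 (SE 1.22, adjusted p = 0.0171), -2.23 for Ace (SE 0.52, adjusted p = 0.0172) and -2.67 for Agtr1a (SE 0.32, adjusted p = 0.000156). The Ren1 value lost its call without E18.5 control replicate 2 (-4.47, adjusted p = 0.0564), and that of Ace without E14.5 ENLT1 replicate 1 (-1.50, adjusted p = 0.0732). For Agtr2 the effects of 2.45 and 1.05 differed by -1.39 (SE 0.50, adjusted p = 0.114), which did not pass. It passed without E14.5 ENLT1 replicate 2 (-1.75, adjusted p = 0.00869) and without the low-count filter (-1.44, adjusted p = 0.0116). In these values too, stage cannot be told apart from dissociation and depth.

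The 2 lineages were last set against each other at E18.5 within a joint fit of 14 sorted libraries. In controls Agtr2, Ren1 and Agtr1a were higher in Foxd1-lineage than in Six2-lineage cells and Ace was lower. Over all tested genes 72.7% were called, 34.7% higher and 38% lower. The log2 differences were 6.56 for Agtr2 (SE 0.21), 4.92 for Ren1 (SE 0.52), 3.20 for Agtr1a (SE 0.17) and -3.36 for Ace (SE 0.20). Agtr1b passed the count filter of this fit through the Foxd1-lineage libraries. Its Six2-lineage libraries held only 6 to 15 counts in controls and 11 to 22 with ENLT1, so its values in this fit rest on few counts there. Lineage cannot be told apart here from run, read length, depth, Cre allele and gene table. The T1 effect differed between the lineages for Agtr2 (-2.21, SE 0.25, adjusted p = 2.24e-06), which fell in stromal cells and rose in nephron-lineage cells, and for Ace (1.47, SE 0.37, adjusted p = 0.00875). The call on Agtr2 was negative and that on Ace positive, beside 15.9% of genes called, 7.63% negative and 8.25% positive. The Ace value lost its call without sorted Foxd1 ENLT1 replicate 1 (1.19, adjusted p = 0.0555). For Ren1 the effects were -3.83 in Foxd1-lineage cells and -2.13 in Six2-lineage cells, where the groups overlap and the call was not stable. The Ren1 difference of -1.74 did not pass (adjusted p = 0.152). It passed without Six2 E18.5 control replicate 2 (-2.59, adjusted p = 0.0152) and without the low-count filter (-1.72, adjusted p = 4.47e-26).

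The genes whose levels ran most like each member were found by Pearson correlation of log2 CPM across genes averaging at least 1 CPM, as a description over libraries that share their groups, depth and preparation. Over 12 whole kidneys Ren1 ran closest to Colec11, Mcf2 and Tent5a (r = 0.978 each), and Agtr2 to Akr1b7 (0.968), Slc4a5 (0.967) and Fap (0.966). Ace ran closest to Cyp4a31 (0.990), BC025446 (0.989) and Xylb (0.988), Agt to Ciao1 (0.955), H2-Q6 (0.953) and Slc5a1 (0.952), Agtr1a to Gm45170 (0.937), Fmo2 (0.933) and Slc7a8 (0.925), and Agtr1b to Sntb1 (0.891), Frmd6 (0.834) and Gm49204 (0.817). Over the 20 sorted libraries, which are split by lineage and stage, Ren1 ran closest to Rcan2 and Enpp1 (0.924 each) and Colec11 (0.905), so Colec11 appeared in both lists of Ren1. In those libraries Agtr2 ran closest to Ecm1 (0.987), Gata6 and Ldb2 (0.986 each), Ace to Tmcc3 (0.988), Slc3a1 and Nfkb1 (0.986 each), and Agtr1a to Anxa2 (0.986) and Col1a2 (0.985). Agtr1b ran closest to 3 predicted genes, Gm48623 (0.980), Gm16201 (0.978) and Gm44710 (0.976), and Agt fell under the level needed.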

How the data were processed

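Poly(A) RNA was sequenced from whole kidneys (stranded mRNA kit) and from sorted tdT+ cells (SMART-seq v4). Per the paper's methods the authors aligned paired reads to mm10 with HISAT2, keeping 1 alignment per read, and obtained gene counts from HTSeq with its strand option off. The deposited values were raw read counts in 4 tables, and the annotation release was not given in the sources used here. Identifiers were paired with symbols and exon lengths from GENCODE vM21, which held 55450 of 55806.

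Counts were tested with edgeR 4.0.16 (R 4.3.3): filterByExpr with a minimum count of 10 and minimum total of 15, TMM factors, glmQLFit and glmQLFTest, with Benjamini-Hochberg adjustment over all tested genes in each of 13 comparisons. SE is the log2 fold change divided by the square root of F. Genotypes were called at an adjusted p under 0.05 and over 1.5-fold, stages at an adjusted p under 0.01 and over 2-fold, and differences between effects at an adjusted p under 0.05. The whole Six2 kidneys shared 1 fit of 3 genotypes. CPM used TMM factors within each table. Floors of 3 counts cover counting error only.

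The 6 genes, the pathway and marker lists and the tests were chosen with earlier results of these data known. Named beside the members were pathway genes called in at least 2 of 6 mutant comparisons, the 3 genes most like each member, and Mllt1; some of these are not reported here. Alternatives were DESeq2 1.42.0, the edgeR exact test, other scalings, no filter, sex as a covariate, a replicate block, 2-group fits and leaving out each library. The scripts were tested on simulated counts. Replicate numbers did not pair the samples: over 19 same-numbered pairs the correlation of deviations from group means was -0.0791 to 0.139. Within groups libraries correlated at 0.974 to 0.993, and none agreed within sampling noise (lowest chi-square per gene 1.36). Promoters came from RefSeq.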

Additional observations from a re-analysis of the deposited data

Results flagged for a closer look

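Among the 6 genes, 9 differences between effects passed the test across all genes, and they are listed as values on the log2 scale. The T1 effect at E18.5 minus that at E14.5 in sorted Six2-lineage cells was -5.27 for Ren1, -2.23 for Ace and -2.67 for Agtr1a. The T1 effect in sorted Foxd1-lineage minus Six2-lineage cells at E18.5 was 1.47 for Ace, -2.05 for Agtr1b and -2.21 for Agtr2. For Agtr1b it rests on 6 to 22 counts in each Six2-lineage library. Agtr1b passed the filter of that fit through the Foxd1-lineage libraries, where it was higher, so its value was favoured by the filter. The T1 effect in Foxd1 minus Six2 whole kidneys was -3.05 for Ren1, 1.16 for Ace and -0.62 for Agtr2. In the last 6 the driver cannot be told apart from run, read length and sex or depth. In the values by stage, stage cannot be told apart from dissociation and depth. No single library stood apart by Dixon's test in the 12 gene-by-group sets of 4 libraries.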

How the results depend on the processing

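In both Foxd1 mutant comparisons every call on Ren1, Agtr2 and Agtr1b kept its direction and its side of the threshold under each alternative run. With the replicate number as a block, Ren1 (4.52, adjusted p = 0.0181) missed 0.01 for stage in sorted Six2 controls. Agt, whose rise was favoured by the filter, missed it too (2.70, adjusted p = 0.0459). With the same block 2 members rather than 1 had a positive Cre driver effect, Agt joining at 0.92 (adjusted p = 0.03). Under the block Agtr1b read 1.23 at E14.5 and -0.47 for stage by genotype, and the block changed no other member's call except that Agtr2 passed for stage by genotype (-1.24, adjusted p = 0.0387). With DESeq2 1 rather than 2 members fell in sorted Six2 cells at E18.5, and DESeq2 and the unfiltered fit each gave 2 members a positive Cre driver effect. Unfiltered, Ren1 passed for lineage by genotype (-1.72, adjusted p = 4.47e-26) and Agtr2 for stage by genotype (-1.44, adjusted p = 0.0116). With sex as a covariate Agtr1b read 0.60 at E14.5 and -0.02 for the Cre driver, and Agtr2 read -0.05 between T3 and T1. Scaling by library size alone gave Agtr1b 0.06 for T3 and -0.04 for the Cre driver, where it was -0.00 unfiltered. The cause of these changes was not tested.

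Between T3 and T1 the 1 higher and 0 lower calls over all genes (1720 at an unadjusted p under 0.05) became 54 and 17 with DESeq2, 69 and 20 with the exact test, 207 and 93 unfiltered, 6 and 8 in the 2-group fit and 92 and 28 with sex. Lower calls for stage by genotype were 1767 with DESeq2, lower calls by lineage 8880 unfiltered, and Cre driver calls 1812 higher with DESeq2 and 1655 higher and 1475 lower unfiltered.

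Leaving out 1 library at a time, members called ranged from 1 to 3 (lower, sorted Six2 E18.5), 2 to 3 (higher, sorted Six2 E14.5), 4 to 5 (higher, stage in controls, with Agt included though the filter favoured it) and 2 to 4 (negative, stage by genotype). For lineage by genotype they ranged from 0 to 1 positive and 2 to 3 negative, with Agtr1b included though the filter favoured it. A Six2 whole kidney group then keeps a lone library that is assumed to vary like the other groups, and member counts from such fits are not given. Calls over all genes ranged from 383 to 818 higher and 707 to 1274 lower for T1 and 689 to 1290 higher for T3 in Six2 whole kidneys, 0 to 12 higher and 0 to 9 lower between T3 and T1, 453 to 1027 positive for stage by genotype, and 587 to 2174 positive and 327 to 1092 negative for the Cre driver. Uncalled values that changed sign ranged as follows. Agtr1b was -0.27 to 0.26 for the Cre driver, -0.69 to 3.94 at E14.5, -0.27 to 0.22 for T3 and -3.11 to 1.45 for stage by genotype. Agt was -0.19 to 0.12 in Foxd1 whole kidneys, -0.44 to 0.02 in sorted Six2 cells at E18.5 and -0.39 to 3.33 for stage by genotype. Ren1 was -1.78 to 0.12 with stage in ENLT1 cells and -0.13 to 0.22 between T3 and T1, Agtr1a -0.06 to 0.17 there and -0.09 to 0.07 in sorted Foxd1 cells, and Ace -0.31 to 0.84 at E14.5. Depth limits Agt, Ace and Agtr1b in the sorted Foxd1 libraries, which held 10 to 27 counts of Ace.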
